A study of Mus musculus with 14 samples.

Results

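Divergent promoter pairs are pairs of genes that lie head to head on opposite strands, so that the DNA upstream of one gene is the body of the other. Pairs of protein-coding genes were taken from the GENCODE M21 annotation of mm10 when their most 5′ transcription start sites (TSSs) pointed away from each other and lay at most 1000 bp apart. The rule used positions of genes only and no measured value. It found 755 pairs with 1489 of the 21938 protein-coding genes (6.79%), of which 21 belonged to more than 1 pair. The H3K4me1 sites were read from 3 kb outside one TSS to 3 kb outside the other, and 1589 of the 160144 sites of the series (0.992%) reached into these windows.

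The cells were immortalized mouse embryonic fibroblasts (iMEFs) with a conditional knockout of Ash2l, in which a lentiviral fusion of FKBP12F36V with human ASH2L stood in for the endogenous protein and could be degraded with dTAG. They were a single clone, NG3. H3K4me1 was measured by ChIP-seq in a control without dTAG and after 30 min, 2, 4, 8 and 16 h of dTAG, with 2 libraries per condition and 2 inputs, from the control and from 16 h. The table used here is 1 set of broad peaks pooled over all samples, with no value per library, so each value below describes where a site was called in any of them. Changes over time were not analysed here, and the table gives no replicate spread or depth. The paper reports that nearly all sites gaining H3K4me1 after ASH2L loss were at promoters. A site near a TSS may thus have been called in treated cells only, and the patterns below need not be those of the control. Where no site is listed, absence of the mark, too few reads and an incomplete table cannot be told apart. The intervals are 95% Wilson intervals for shares, Newcombe intervals for differences of shares and order-statistic intervals for medians, and they cover the counting of promoters only. Where genes of pairs were counted, both genes of a pair entered as separate units. Partners share sites and gaps, so intervals for genes of pairs are too narrow.

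Head-to-head promoters are common in mammalian genomes, usually lie in CpG islands, and are enriched for genes of DNA repair, mitochondria and other functions that all cells need. Polymerase leaves them in both directions from a shared nucleosome-depleted centre. H3K4me1, the mono-methylated form of lysine 4 of histone H3, marks enhancers and the shoulders of active promoters, where it flanks the more highly methylated H3K4me3 next to the TSS. ASH2L is a core subunit of the KMT2 complexes that write these marks. Of the marker promoters, 11 of 12 fibroblast genes, 0 of 5 blood genes, 4 of 4 epithelial genes and 1 of 3 neuronal genes had a site within 1 kb of the TSS. The share over all protein-coding genes was 63.9%, so these small counts say little about the cell type. Col3a1 was the fibroblast gene without one. A site does not show that a gene was expressed.

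The DNA between the TSSs is short in most pairs, and a few examples show what the site patterns below correspond to. The sequences are GRCm38 (mm10), plus strand, 5′ to 3′, and run from the base after the TSS of the minus-strand gene to the base before the TSS of the plus-strand gene. Capitals mark CCAAT (the box bound by NFY), GGGCGG (the GC box) and CGGAAG (the core of ETS factors) on either strand, so that CCAAT also appears as ATTGG, the GC box as CCGCCC and the ETS core as CTTCCG. They were chosen to contrast the patterns. The first 3 intervals were free of H3K4me1 sites with a site on either side, the next 3 lay wholly under a site, and the last was free with sites on one side only. Mrps12/Sars2 lies at chr7:28741821-28741991, Recql/Golt1b at chr6:142387088-142387220, Psmb1/Tbp at chr17:15499752-15499887, Brca1/Nbr1 at chr11:101551956-101552148, Kctd10/Ube3b at chr5:114380509-114380606, Col4a4/Col4a3 at chr1:82586850-82586920 and Net1/Tubal3 at chr13:3918221-3918273.
Mrps12/Sars2: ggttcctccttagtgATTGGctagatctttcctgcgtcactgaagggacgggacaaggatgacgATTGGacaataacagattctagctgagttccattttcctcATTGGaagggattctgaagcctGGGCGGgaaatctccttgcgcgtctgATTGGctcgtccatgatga
Recql/Golt1b: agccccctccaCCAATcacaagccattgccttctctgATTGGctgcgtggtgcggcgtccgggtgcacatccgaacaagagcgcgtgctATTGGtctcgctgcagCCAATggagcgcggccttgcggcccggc
Psmb1/Tbp: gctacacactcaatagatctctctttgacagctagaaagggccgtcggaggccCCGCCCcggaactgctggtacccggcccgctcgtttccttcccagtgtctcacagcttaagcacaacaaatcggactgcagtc
Brca1/Nbr1: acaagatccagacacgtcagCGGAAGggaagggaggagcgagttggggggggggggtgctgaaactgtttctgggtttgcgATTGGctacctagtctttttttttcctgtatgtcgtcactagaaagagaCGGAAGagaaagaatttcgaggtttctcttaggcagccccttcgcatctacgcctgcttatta
Kctd10/Ube3b: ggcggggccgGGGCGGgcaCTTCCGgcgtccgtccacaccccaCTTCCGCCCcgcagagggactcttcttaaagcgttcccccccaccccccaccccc
Col4a4/Col4a3: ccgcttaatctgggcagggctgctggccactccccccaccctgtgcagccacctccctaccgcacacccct
Net1/Tubal3: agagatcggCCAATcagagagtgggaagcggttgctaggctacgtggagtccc

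Mrps12/Sars2 and Recql/Golt1b each held 4 CCAAT boxes, Psmb1/Tbp none, Brca1/Nbr1 and Net1/Tubal3 1 each, and the other pairs none. In Kctd10/Ube3b a CTTCCG and a CCGCCC overlap in the run CTTCCGCCC.

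The pairs were compact and CpG-rich. The median TSS distance was 129 bp (95% interval 117 to 139, quartiles 66.5 and 240). A CpG island lay within 1 kb of a TSS in 694 pairs, or 91.9% (89.8 to 93.7%), against 54.8% of all protein-coding TSSs, and in 547 pairs (72.5%) a single island spanned both TSSs. The 300 bp around the midpoint had a median of 24 CpGs and a GC content of 62.3%. The corresponding values were 21 CpGs and 61.7% for the single island promoters used for comparison below, and 11 CpGs and 55.0% for all protein-coding promoters. The windows of the pairs lay on 20 chromosomes.

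H3K4me1 sites flanked most pairs on both sides. A site lay in the 3 kb inside both genes in 680 pairs, or 90.1% (87.7 to 92.0%). A site on only one side was found in 45 pairs (5.96%), and 30 (3.97%) had none. Counted by gene, 94.2% (92.8 to 95.2%) of the genes of pairs had a site within 1 kb of the TSS, where the background over all protein-coding genes was 63.9%. That background includes genes without an island. Of the single island promoters used for comparison below, 90.9% (90.3 to 91.5%) had a site in the 1 kb downstream of the TSS alone. A high share with a site is thus not particular to pairs. A site on both sides within 3 kb was found at 91.1% of the genes of pairs, with a background of 55.3%. Of the 694 island pairs, 92.7% (90.5 to 94.4%) had both flanks, and of the 61 pairs without an island 60.7% (48.1 to 71.9%). With narrower sites than 500 bp left out, the share with both flanks was 77.4%.

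Between the TSSs the pairs divided into nearly equal groups. In 302 pairs (40.0%, 36.6 to 43.5%) both flanks had a site and the interval between the TSSs had none. In 328 pairs (43.4%, 39.9 to 47.0%) the interval lay wholly under a site, and in all 328 it was 1 unbroken site that ran over both TSSs, with a median width of 2330 bp (quartiles 1656 and 3045.8). All sites on chromosomes had a median width of 603 bp, but wide sites are more likely to be picked by a rule that asks them to span both TSSs. A further 50 pairs (6.62%) had both flanks and an interval covered in part. The total length under sites differed less than the patterns did, with a median of 2570 bp (2446 to 2741) of the window in free pairs and of 2838 bp (2704 to 2943) in covered pairs. Including pairs without sites in both flanks, 362 intervals (47.9%) were free.

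**Figure D1:**
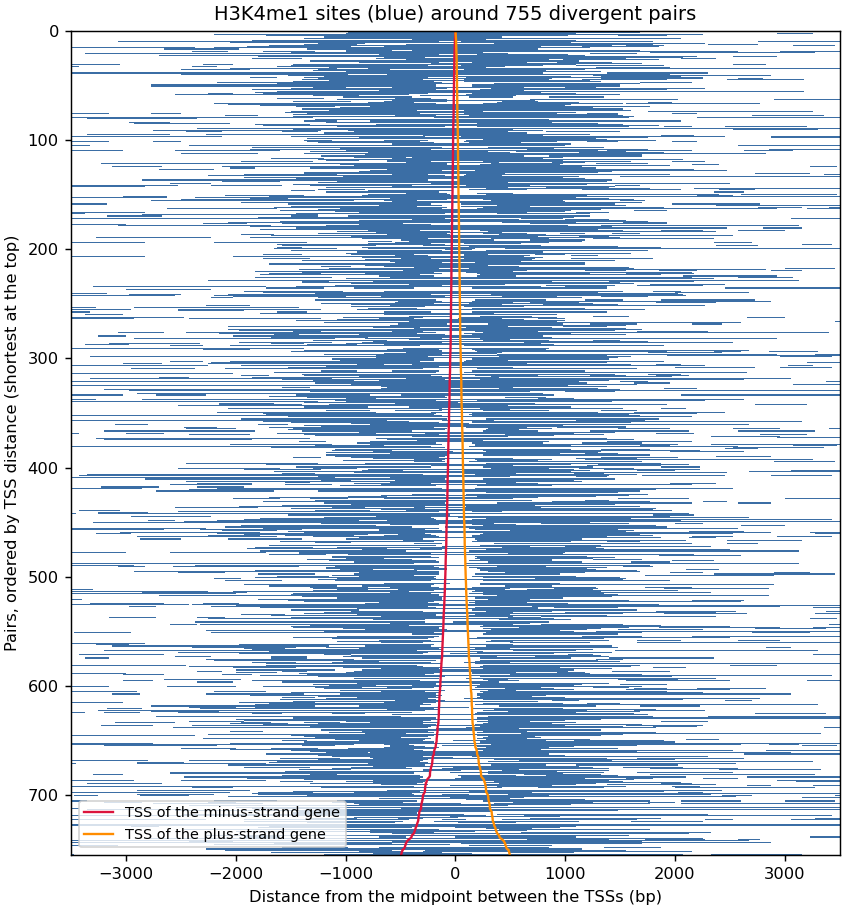
Each row is 1 of the 755 pairs, ordered by TSS distance from the shortest at the top, and the x axis is the distance from the midpoint between the TSSs in bp. Blue marks bases under an H3K4me1 site, and the coloured lines mark the TSSs of the minus-strand and the plus-strand gene. Sites lie on both sides of the midpoint in most rows, and in 328 rows a single site runs across both TSSs.

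The interval was free more often at intermediate distances. Of 313 pairs with TSSs up to 100 bp apart, 40.6% (35.3 to 46.1%) had a free interval and 58.8% (53.3 to 64.1%) a covered one. At over 100 and up to 200 bp the interval was free in 57.3% (50.5 to 63.8%) of 206 pairs, and at over 200 and up to 300 bp in 67.0% (57.3 to 75.4%) of 100 pairs. The share then fell to 54.5% (42.6 to 66.0%) of 66 pairs at over 300 and up to 500 bp and to 20.0% (12.3 to 30.8%) of 70 pairs at over 500 bp, where 44.3% were covered in part. A longer interval also has more bases that a site can touch. Both flanks had a site in 89.3 to 93.3% of the pairs in the 4 bins up to 500 bp and in 72.9% (61.5 to 81.9%) above.

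Where the midpoint was free and a site lay on both sides, the gap between these sites was measured. It had a median of 436 bp (424 to 469, quartiles 357.8 and 603) over 336 pairs and ranged from 202 to 3213 bp. The gap changed little with the distance between the TSSs up to 300 bp. Its median was 416.5 bp (370 to 430) for TSSs up to 100 bp apart, 426.5 bp (384 to 486) for over 100 to 200 bp and 422 bp (402 to 506) for over 200 to 300 bp, and these intervals overlap. It was 550 bp (465 to 606) for over 300 to 500 bp and 643 bp (579 to 788) above. Spearman's rank correlation of TSS distance and gap was 0.259 over the 336 pairs, which all come from the same pooled set of sites. Only 11 gaps were shorter than the distance between the TSSs.

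**Figure D2:**
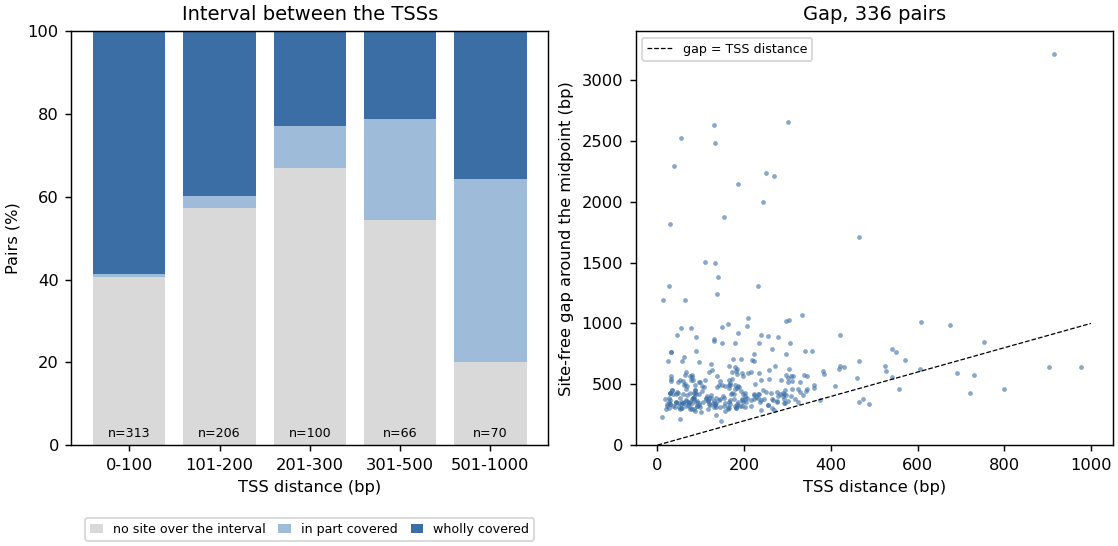
Left, the share of pairs (%) whose interval between the TSSs was free of sites, covered in part or wholly covered, by TSS distance in bp, with the number of pairs in each bar. Right, the site-free gap around the midpoint in bp against the TSS distance in bp for 336 pairs, each a point, with a dashed line where both are equal. The free share is highest, 67.0%, in the third bin, and most gaps lie above the dashed line.

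In 302 of these 336 pairs (89.9%, 86.2 to 92.7%) both edges of the gap lay inside the genes. These are the 302 pairs counted above with both flanks and a free interval, so this share follows from that class. Over the 336 pairs the median edge was 115 bp (108 to 129) downstream of the TSS. At the genes of island pairs whose TSS was free, the first site inside the gene began at a median of 124 bp (112 to 136) from the TSS, against 132 bp (127 to 136) for single island promoters. The gap around the TSS was 429 bp (422 to 452) at genes of pairs and 427 bp (416 to 438) at single promoters. The intervals overlap, and no interval for the difference of the medians was computed. No difference in the place of the edge or the width of the gap is claimed. The resolution of the table limits these values, since only 1.12% of all gaps between neighbouring sites were shorter than the 202 bp found here, and the 5th percentile was 305 bp.

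The flanks of a pair were often unequal. Over the 680 pairs with both, the larger flank held a median of 1.62 times (1.55 to 1.68) as many bases under sites as the smaller, and it held more than 2 times as many in 225 pairs (33.1%). The minus-strand gene had the larger flank in 316 pairs (46.5%, 42.8 to 50.2%). Spearman's rank correlation of the bases under sites in both flanks was 0.285 over all 755 pairs and 0.171 over the 680. Of all flank bases under sites, 64.0% were intronic, 34.4% exonic and 1.59% beyond the end of the gene.

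To compare the upstream side, 8912 single island promoters were taken, protein-coding TSSs with a CpG island and no other protein-coding TSS within 5 kb. The 1366 pair genes with an island at the TSS had a site in the upstream 3 kb in 96.0% (94.9 to 97.0%) of cases and single promoters in 80.1% (79.3 to 80.9%), a difference of 15.9 percentage points (14.5 to 17.2). Sites covered 45.5% of the upstream 3 kb of pair genes and 23.6% of that of single promoters, a difference of 21.9 points. In 100 bp bins, coverage upstream of pair genes was highest from 600 bp before the TSS, at 81.1%, and that of single promoters from 300 bp, at 57.1%. At 2000 bp upstream the values were 30.4% and 10.6%. The upstream flank of a pair gene holds the start of its partner, so the difference was set by what was compared and is given as a size.

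At the TSS and on the gene side, coverage by sites differed in the opposite direction, but the share of genes with any site did not. Sites covered the TSS of 48.9% (46.3 to 51.6%) of pair genes and of 56.3% (55.2 to 57.3%) of single promoters, a difference of -7.37 points (-10.2 to -4.53). With pairs whose 5′ ends overlap included, the difference was 1.26 points (-1.06 to 3.57), an interval that includes 0. The lower share at pair genes thus depends on which pairs are counted. Coverage just inside the gene was alike, with maxima of 84.7% and 83.0% from 300 bp downstream. Farther in, it declined faster at pair genes, to 24.2% against 32.3% at 2000 bp and 13.3% against 20.1% at 2900 bp. Over 3 kb the downstream flank was covered at 43.7% and 49.0%, a difference of -5.32 points (-6.73 to -3.91), and over 1 kb the difference was -1.57 points (-3.25 to 0.11). A site in the downstream 3 kb was found at 95.1% of pair genes and 91.8% of single promoters. This difference of 3.29 points (1.90 to 4.47) had the same direction as the one upstream. Pair genes were shorter, with a median length of 19.2 kb against 28.9 kb. Among genes of at least 10 kb, the 3 kb difference was -7.23 points (-8.86 to -5.59).

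**Figure D3:**
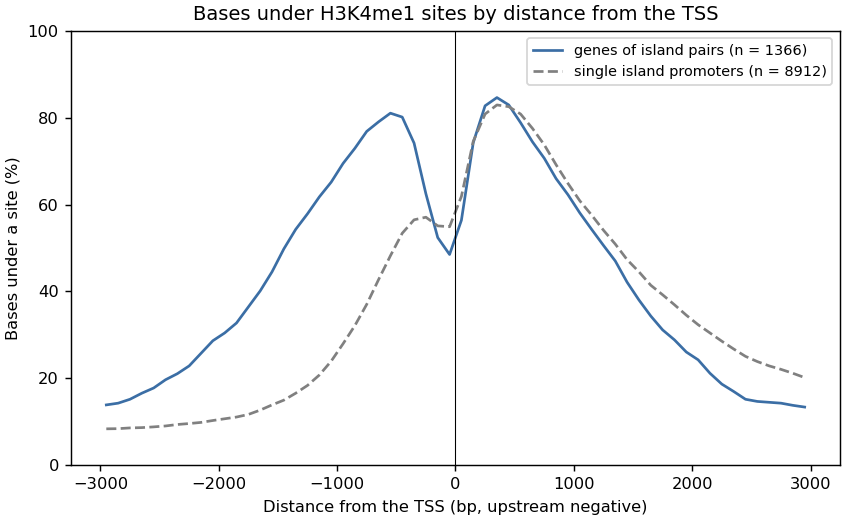
The share of bases under H3K4me1 sites (%) in 100 bp bins against the distance from the TSS in bp, in the direction of transcription, for 1366 genes of island pairs (solid) and 8912 single island promoters (dashed). Upstream the pair genes reach 81.1% and the single promoters 57.1%, while downstream the maxima are 84.7% and 83.0%.

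When the TSS itself was free, the sites also lay differently. A site on both sides was found at 87.5% (84.9 to 89.8%) of the 698 free TSSs of pair genes and at 52.0% (50.4 to 53.6%) of the 3897 of single promoters. A site on the gene side only was found at 2.87% and 29.3%, respectively. The upstream side of a pair gene holds the start of its partner here too. These differences were therefore also set by what was compared and are given as sizes.

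Of 17 textbook pairs looked up by name, 8 met the rule, and all 8 had a site in both flanks, 3 with a free interval, 3 with a covered one and 2 with one covered in part. Of the others, 8 had 5′ ends that overlap in the annotation, among them Hspd1/Hspe1, and Col4a5/Col4a6 were 1309 bp apart. Atm, the kinase that signals DNA double-strand breaks, and Npat, the activator of histone genes, start 307 bp apart on chromosome 9. A site of 1676 bp (chr9:53534968-53536643) began 97 bp inside Atm, almost wholly over introns, and a site of 677 bp (chr9:53537210-53537886) began 163 bp inside Npat, all of it intronic. Between them 566 bp were free.

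Brca1, a homologous recombination factor, and Nbr1, an autophagy receptor, start 194 bp apart on chromosome 11 under 1 site of 1766 bp (chr11:101550773-101552538). It reached 1182 bp into Brca1 and 389 bp into Nbr1, and 2 more sites followed inside Nbr1. Wrn, a RecQ helicase, and Purg lie 798 bp apart under 1 site of 3829 bp (chr8:33383653-33387481). Mcm4, a subunit of the replicative helicase, and Prkdc, the DNA-dependent protein kinase, lie 466 bp apart. Here a site began 95 bp inside Mcm4, while a site of 504 bp (chr16:15637659-15638162) lay over the TSS of Prkdc, which left a gap of 353 bp on the Mcm4 side.

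Of the textbook pairs, 2 more had a free interval. Mrps12, a mitochondrial ribosomal protein, and Sars2, the mitochondrial seryl-tRNA synthetase, start 172 bp apart. Of the sites, 1 of 959 bp (chr7:28740851-28741809) began 11 bp inside Mrps12 and 1 of 820 bp (chr7:28742354-28743173) 362 bp inside Sars2, with a gap of 544 bp. Psmb1, a proteasome subunit, and Tbp, the TATA-binding protein, lie 137 bp apart with a gap of 1238 bp. Rps28 and Ndufa7, a ribosomal protein and a subunit of respiratory complex I, start only 10 bp apart and had the shortest interval of the free pairs. Their sites of 2903 bp (chr17:33821508-33824410) and 1706 bp (chr17:33824640-33826345) left 229 bp, so that the gap lay mostly inside the genes.

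At the other extreme, Nsa2/Gfm2 have their TSSs at the same base and lay under a site of 852 bp (chr13:97137550-97138401), 387 bp of it on the Nsa2 side. Dhrs1/Nop9, 3 bp apart, lay under a site of 4419 bp with nearly equal flanks of 2185 and 2230 bp. The collagen pair Col4a4/Col4a3, subunits of basement membrane collagen, has no CpG island within 1 kb, as Brca1/Nbr1 has none, and was covered by a site of 1492 bp (chr1:82586084-82587575), with 765 bp in Col4a4 and 654 bp in Col4a3. The widest site in any window, 13461 bp (chr6:83024063-83037523), ran over the whole window of Dok1, an adaptor of receptor tyrosine kinases, and Loxl3, a lysyl oxidase that cross-links collagen. A site of 12173 bp lay over the TSSs of Odf3l1 and Cspg4, the NG2 proteoglycan, and 1 of 9136 bp over those of Plcd3, a phospholipase C, and Acbd4. A site of 9369 bp began 2205 bp inside Kctd10, next to the site over its interval with Ube3b, and 1 of 7980 bp over the TSSs of P3h4 and Fkbp10, which act in collagen modification.

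**Figure D4:**
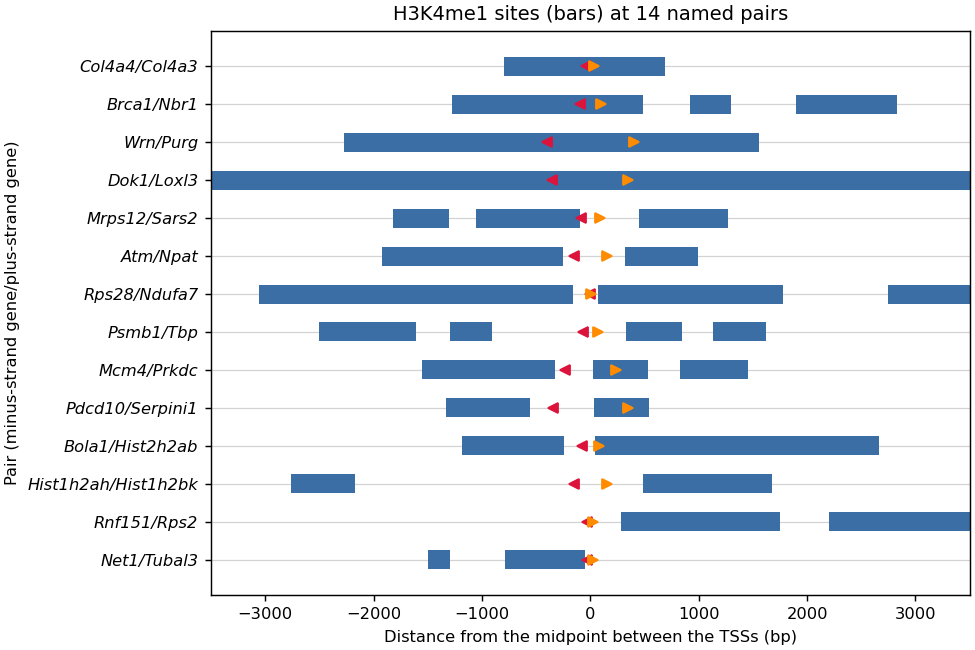
H3K4me1 sites (bars) at 14 named pairs, against the distance from the midpoint between the TSSs in bp, cut off at the edges of the plot. Arrowheads mark the TSSs and point in the direction of transcription, red for the minus-strand and orange for the plus-strand gene. The first 4 pairs lie under 1 site, Mrps12/Sars2 to Psmb1/Tbp have a free interval, and Rnf151/Rps2 and Net1/Tubal3 have sites on one side only.

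The largest differences between flanks included these. Ppp1r15a, a stress-induced phosphatase subunit, had 2915 of its 3000 flank bases under a site and Plekha4, 62 bp away, 356. E4f1, a transcription factor, had 394 and Pgp, phosphoglycolate phosphatase, 2690. Among the 45 pairs with a site on one side only, the flank was in the minus-strand gene in 30 and in the plus-strand gene in 15. Rps2, a ribosomal protein, had 2303 bases under sites and Rnf151, 53 bp away, none. Net1 had 945 and Tubal3, an alpha tubulin-like gene, none. Vta1, an endosomal sorting factor, had 695 and Nmbr, the receptor of neuromedin B, none. Crcp, 43 bp from Asl, had 1098 and Asl, a urea cycle enzyme, none.

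The 30 pairs without a site in either flank had no site over the interval either. Their nearest site lay a median of 24257.5 bp away (13534 to 49417). Dgcr2/Tssk2, 75 bp apart, had the nearest at 6150 bp, and Mtcp1/Brcc3 and Cmc4/Brcc3, which share the TSS of Brcc3, had it at 33807 and 33803 bp. Of the 30 pairs, 11 touched a stretch of more than 200 kb without any site, and these stretches were not analysed further. Whether the table is complete there is not known. Without the 24 pairs and the single promoters at such stretches, both flanks had a site in 91.8% of 731 pairs, 2.60% (1.67 to 4.02%) had none and the difference in upstream flanks with a site was 14.1 points (12.8 to 15.2).

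By function, the gene lists differed in how often they formed pairs. Mitochondrial genes were taken by symbol, as subunits of respiratory complexes, mitochondrial ribosomal proteins and protein import. The symbol rule also takes in assembly factors such as Ndufaf2. These genes contributed 47 of 211 (22.3%, 17.2 to 28.4%). DNA replication and repair genes contributed 19 of 78 (24.4%, 16.2 to 34.9%) and RNA polymerase subunits 9 of 29 (31.0%, 17.3 to 49.2%). The share of all protein-coding genes was 6.79%. Proteasome and chaperonin genes contributed 11 of 58, tRNA synthetases 5 of 35 and cytosolic ribosomal genes 10 (9.90%), where the symbol rule also takes in ribosomal S6 kinases. Zfp zinc finger genes contributed 20 of 394 (5.08%) and collagens 3 of 45, where the symbol rule also takes in Col4a3bp, a lipid transfer protein. None of 1135 olfactory receptors formed a pair, with a Wilson upper limit of 0.337%.

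All 46 pairs with a mitochondrial gene had sites in both flanks, of which 26 had a free interval and 20 a covered one. Of the 18 DNA replication and repair pairs, 17 had both flanks, with 7 free, 8 covered and 2 covered in part. The 11 proteasome and chaperonin pairs had both flanks in 10, with 6 free and 4 covered. The 10 ribosomal pairs had both flanks in 8, with 7 free and 1 covered. All 5 tRNA synthetase pairs had both flanks, 4 of them with a free interval. Of 18 pairs with a Zfp gene, 17 had both flanks, with 5 free, 11 covered and 1 covered in part. Lists of this size have wide intervals around the 90.1% of all pairs, and nothing particular to a list follows from its count.

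The replication-dependent histone genes are transcribed in S phase and lie in clusters. Of 67 genes, 27 (40.3%, 29.4 to 52.3%) formed pairs, mostly of an H2A and an H2B gene. The Hist1 cluster on chromosome 13 held 12 pairs with TSSs 176 to 660 bp apart. Of these, 6 had sites in both flanks, 4 in one and 2 in none, and no interval was touched by a site. The gaps of the 6 ranged from 886 bp at Hist1h2bl/Hist1h2ai to 2654 bp at Hist1h2ah/Hist1h2bk, with a median of 2175.5 bp, where the median of all pairs was 436 bp. On chromosome 3, Bola1/Hist2h2ab had a gap of 283 bp, and Hist2h2ac/Hist2h2be lay under 1 site of 2623 bp. These genes are near-identical in sequence, so their values are uncertain where a read could be placed at several copies. Chromosome 13 had both flanks in 73.7% of 38 pairs, and in 84.6% (66.5 to 93.8%) of the 26 that were not histone pairs.

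Pairs of related genes, taken by symbol, were few. Partners counted as related when the whole run of letters before the first digit was the same and not very short. This rule missed pairs such as Hadha/Hadhb and S100a1/S100a13, which count among the others below. Including 13 with histone genes, 26 pairs (3.44%) met the rule. Of these, 69.2% (50.0 to 83.5%) had a site in both flanks, against 90.8% (88.5 to 92.7%) of the other 729, a difference of 21.6 points (7.12 to 40.9). Without histone pairs the shares were 84.6% (57.8 to 95.7%) of 13 and 90.8% of 728, and the difference of 6.18 points (-5.12 to 33.1) has an interval that includes 0.

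The 3 motifs marked in the sequences above and 6 others were counted on both strands in the 300 bp around the midpoint of each pair. They were compared with the 300 bp from 250 bp before to 50 bp after the TSS of single island promoters and of all protein-coding genes. CGGAAG was found in 44.2% (40.7 to 47.8%) of pairs, 27.3% of single island promoters and 19.9% of all promoters. AAGATGGC, the core of the YY1 motif, was found in 8.48%, 3.36% and 2.92%, and CTCGCGAG in 3.84%, 1.83% and 1.21%. TATAAA was rarer in pairs, with 4.37%, against 6.89% and 12.6%. GGGCGG was found in 68.1% of pairs and 67.7% of single island promoters, with 43.0% of all promoters. GCATGCGC was found in 6.49%, 5.24% and 3.71%, TGACGTCA in 4.37%, 3.37% and 2.43%, and CACGTG in 10.7%, 10.5% and 7.75%. For CGGAAG the difference between pairs and single island promoters was 16.9 points (13.3 to 20.6) and for AAGATGGC 5.12 points (3.30 to 7.35). The windows differ in what they hold, since those of pairs reach into both genes. A match is a run of letters and does not show that a factor was bound.

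Of the 9 motifs counted, CCAAT differed most between free and covered pairs. It was found in 54.6% (49.0 to 60.2%) of the 302 pairs with a free interval and in 32.9% (28.1 to 38.2%) of the 328 with a covered one, a difference of 21.7 points (14.0 to 29.1). Over all pairs it was found in 45.0%, against 37.0% of single island promoters and 39.0% of all promoters. CGGAAG differed by -2.01 points (-9.76 to 5.77) and GGGCGG by 6.57 points (-0.474 to 13.5) between the same pairs, and both intervals include 0. AAGATGGC differed by 5.54 points (0.969 to 10.3). The intervals were not adjusted for the number of motifs.

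Free pairs had a longer median TSS distance than covered ones, 150 bp (133 to 167) and 85.5 bp (76.0 to 99.0), and their windows therefore held more intergenic DNA, so the comparison was repeated within bins of distance. CCAAT was more frequent in free pairs in each of the 5 bins. The difference was 10.8 points (-0.372 to 22.1) up to 100 bp and 13.8 points (-0.83 to 27.7) for over 100 to 200 bp, where the intervals include 0. It was 26.0 points (2.60 to 46.6) for over 200 to 300 bp, 33.2 points (2.21 to 55.3) for over 300 to 500 bp and 63.3 points (19.3 to 81.0) above, with only 6 free pairs in the last bin. Without the histone pairs, whose promoters are known for CCAAT boxes, the shares were 53.7% and 32.7%. In windows at or below and above the median GC content of 63.3% the differences were 17.7 and 22.7 points. Single island promoters with sites on both sides showed the same direction, with CCAAT in 47.6% (45.4 to 49.7%) of 2027 free TSSs and 31.7% (30.4 to 33.0%) of 5013 covered ones. In the interval between the TSSs alone, CCAAT was found in 44.4% (38.9 to 50.0%) of free pairs and 27.1% (22.6 to 32.2%) of covered ones. This last comparison was not matched for length, and the longer intervals of free pairs give the box more places to match. The intervals of Mrps12/Sars2 and Recql/Golt1b, each with 4 CCAAT boxes, are examples of free pairs with the box. Psmb1/Tbp is free without the box, and Brca1/Nbr1 is covered and holds it.

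**Figure D5:**
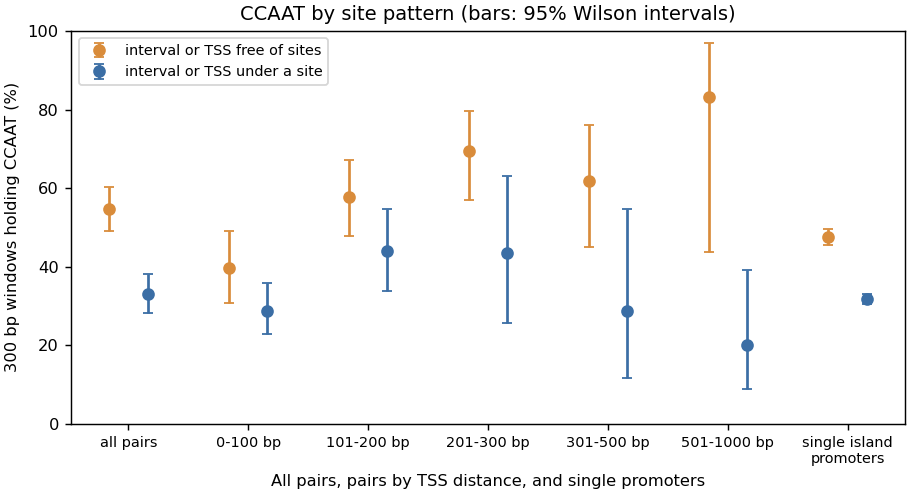
The share of 300 bp windows that hold CCAAT on either strand (%), for intervals or TSSs free of H3K4me1 sites (orange) and under a site (blue), with 95% Wilson intervals as error bars. Shown are all pairs with both flanks, the same pairs by TSS distance, and single island promoters with sites on both sides. The orange point lies above the blue one in each group, with intervals that overlap in most of the distance bins.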

How the data were processed

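H3K4me1 ChIP-seq was measured in 12 libraries with 2 inputs. As the study's methods state, the authors mapped trimmed reads with BWA (mm10), removed unusable ones with SAMtools, merged replicates and called broad peaks with MACS2, with versions and thresholds not given in the sources used here. The deposited file gives a start and an end position for every site, in bases, in 1 set over all samples and in no other unit. The 36 sites off the chromosomes were left out.

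Pairs came from GENCODE M21 and sequences from GRCm38.p6. CpG islands (16732) were called on repeat-masked sequence by adding 17 for each CpG and -1 for any other base, over 200 bp long, with at least 50% GC and an observed to expected ratio over 0.6. Overlaps used numba 0.67.0, scipy 1.17.1 and numpy 2.4.6 under Python 3.11.15, figures used matplotlib 3.10.9, and the functions were tested on simulated data. No test over samples was possible.

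The members and lists were chosen with earlier results of these data known. Named were 17 textbook pairs, up to 5 pairs with the shortest TSS distance in each pattern, and the 5 pairs with the widest site, the largest flank difference and the longest gap. Other pairs, list members and the comparisons of CCAAT between free and covered pairs were chosen after their values were seen. Some of the rule's pairs are only counted.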

Additional observations from a re-analysis of the deposited data

How the results depend on the processing

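Of 104 alternatives over 10 results, 59 were planned and 45 were added after seeing the data. In 82 the value stayed within the main 95% interval or, for the number of pairs, within 1.5 times of it, 21 moved and 1 reversed. With pairs whose 5′ ends overlap included, there were 1211 pairs, free intervals made up 35.4%, the upstream flank was covered by 19.5 points more than at single island promoters, and the difference in covered TSSs reversed to 1.26 points. The median gap was 423 bp with TSSs at most 300 bp apart. Sites of at least 500 bp gave both flanks in 77.4% of pairs and 18.6 points more upstream flanks with a site. The difference in upstream coverage was 23.2 points over 1 kb and 20.2 points with all pairs. The difference in upstream flanks with a site was 13.9 points with islands of at least 500 bp, 14.0 with all pairs, 17.9 with an overlap of at least 100 bases and 14.1 without promoters at long site-free stretches. The other 9 values that moved kept their direction. The cause was not tested. No paired analysis was possible because all libraries are pooled into 1 set, and for the same reason no replicate could be left out. The table gives no depth.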

Other observations

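Chromosome X held 20 pairs, of which 10 (50.0%, 29.9 to 70.1%) had a site in both flanks and 7 (35.0%, 18.1 to 56.7%) had none. Those with none include Mtcp1/Brcc3 and Cmc4/Brcc3, which share the TSS of Brcc3. They also include Asb12/Pfn5 and Psmd10/Atg4a, at site-free stretches of more than 200 kb where completeness is not known. Trpc5/Rtl4, with 1 flank, and Ptchd1/Gm15155, with both, also lay at such stretches. On the autosomes 91.2% (88.9 to 93.0%) of 735 pairs had both and 3.13% had none. An island lay at 75.0% of the pairs on X and at 92.4% of those on autosomes. Of single island promoters, 79.9% on X and 92.2% on autosomes had a site in the downstream flank. The density of sites was 15.0 per Mb on X and 61.7 per Mb on the autosomes. Fam3a/Ikbkg, 18 bp apart, was a pair on X with the common pattern, with sites of 538 and 784 bp and a gap of 382 bp.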
